A study of Rattus norvegicus with 18 samples.

Results

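The platelet-derived growth factor (PDGF) family was followed at the transcript level in rat kidney after the ureter had been tied. It comprised the 4 ligand genes Pdgfa, Pdgfb, Pdgfc and Pdgfd and the 2 receptor genes Pdgfra and Pdgfrb, taken by gene name from a table of 30957 genes; each name had 1 row, and all 6 genes were among the 14511 genes that had enough reads to be tested. The tissue was renal parenchyma of rats with unilateral ureteral obstruction, a surgical model in which urine cannot leave the tied kidney. The left ureter was ligated under ketamine anaesthesia in all animals used here, and the groups differed in how long the ligature was in place: 1 day (5 libraries), 3 days (5 libraries), 7 days (5 libraries) and, as labelled, 14 days (3 libraries). The labels give no strain, sex or age. The design names a sham group, but none of the 18 libraries is labelled as sham, so each comparison is between durations of obstruction. The labels do not tie a library to a separate animal, so the p-values below measure the spread between libraries, which may be technical.

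PDGF ligands are disulphide-linked dimers that bind receptor tyrosine kinases on mesenchymal cells. PDGF-A and PDGF-B are cut to their active form inside the cell by proprotein convertases, whereas PDGF-C and PDGF-D are secreted as latent proteins and lose their CUB domain outside it, PDGF-C to tissue plasminogen activator and PDGF-D to urokinase or matriptase. PDGFR-alpha is engaged by PDGF-A, PDGF-B and PDGF-C, and PDGFR-beta by PDGF-B and PDGF-D. In the kidney, PDGF-B from endothelium and PDGFR-beta on mesangial cells and pericytes are needed to build the glomerular tuft, and receptor-bearing pericytes and fibroblasts are known as sources of scar-forming myofibroblasts after injury.

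Levels are given as FPKM, fragments scaled to transcript length and library size, which corrects for gene length and allows genes to be compared with each other. Differences between durations are log2 fold changes ± standard error from edgeR's quasi-likelihood test on the read counts, with p adjusted by the Benjamini-Hochberg method over all 14511 genes. A gene was called at an adjusted p under 0.05. Library totals ran from 5488540 to 12049915 counts. Since the RNA came from whole tissue, fewer cells of a type and less RNA per cell cannot be told apart.

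The libraries labelled 14 days and replicate 5 of day 1 stood apart from the rest. On the first principal component, which held 40.5% of the variance, replicates 1 and 3 labelled 14 days lay at 125.9 and 143.9 and replicate 5 of day 1 at 54.5, against -30.8 to -12.6 for the other 15 libraries; replicate 2 labelled 14 days stood alone on the second component (18.6% of the variance) at 112.1. Havcr1, which encodes the tubular injury marker KIM-1, averaged 3.1 ± 3.82 FPKM (SD, n = 3) in the libraries labelled 14 days, where the groups of 1, 3 and 7 days averaged 801 ± 160, 473 ± 160 and 381 ± 91.6 FPKM (SD, n = 5 each). The mitochondrial genome gave 21.9 ± 6.73% of counts in the libraries labelled 14 days, against group means of 8.04% to 9.85% at the earlier durations. Summed FPKM of 7 adipocyte markers was 178 in replicate 5 of day 1 and 23 to 33.2 in the other libraries of that day, and 278, 62.4 and 2370 in the libraries labelled 14 days. Summed FPKM of 6 urothelial markers was 87.1 in replicate 5 of day 1, 70.3 in replicate 1 of day 3 and 279 in replicate 1 labelled 14 days. Their part in the PDGF values was not tested. All 10 proximal tubule markers and all 7 podocyte markers were above 0 in every library. Results that rest on these libraries are given with and without them where a refit was made.

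Pdgfb was the most abundant family member after 1 day of obstruction and the receptors gained the most FPKM by 7 days. At 1 day, Pdgfb stood at 86.2 ± 13.6 FPKM (SD, n = 5), above 95.9% of the 22014 genes with a read in any library. Pdgfa, Pdgfra, Pdgfc and Pdgfrb followed at 15.4 ± 4.5, 14.4 ± 7.71, 12.1 ± 3.42 and 10.1 ± 1.98 FPKM (SD, n = 5 each), a sequence in which neighbours overlapped. Pdgfd was far below at 0.534 ± 0.253 FPKM (SD, n = 5), above 33.1% of detected genes and resting on 8 to 59 reads per library. At 7 days the order was Pdgfb at 61.2 ± 21.9, Pdgfra at 29.6 ± 7.08, Pdgfrb at 28.5 ± 6.05, Pdgfa at 16.3 ± 3.12, Pdgfc at 14.9 ± 2.76 and Pdgfd at 2.26 ± 0.761 FPKM (SD, n = 5 each). The 2 receptors overlapped each other, as did Pdgfa and Pdgfc, while every receptor value lay above every Pdgfa and Pdgfc value at 7 days. Pdgfrb passed from above 66.7% of detected genes at 1 day to above 85.1% at 7 days.

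**Figure D1:**
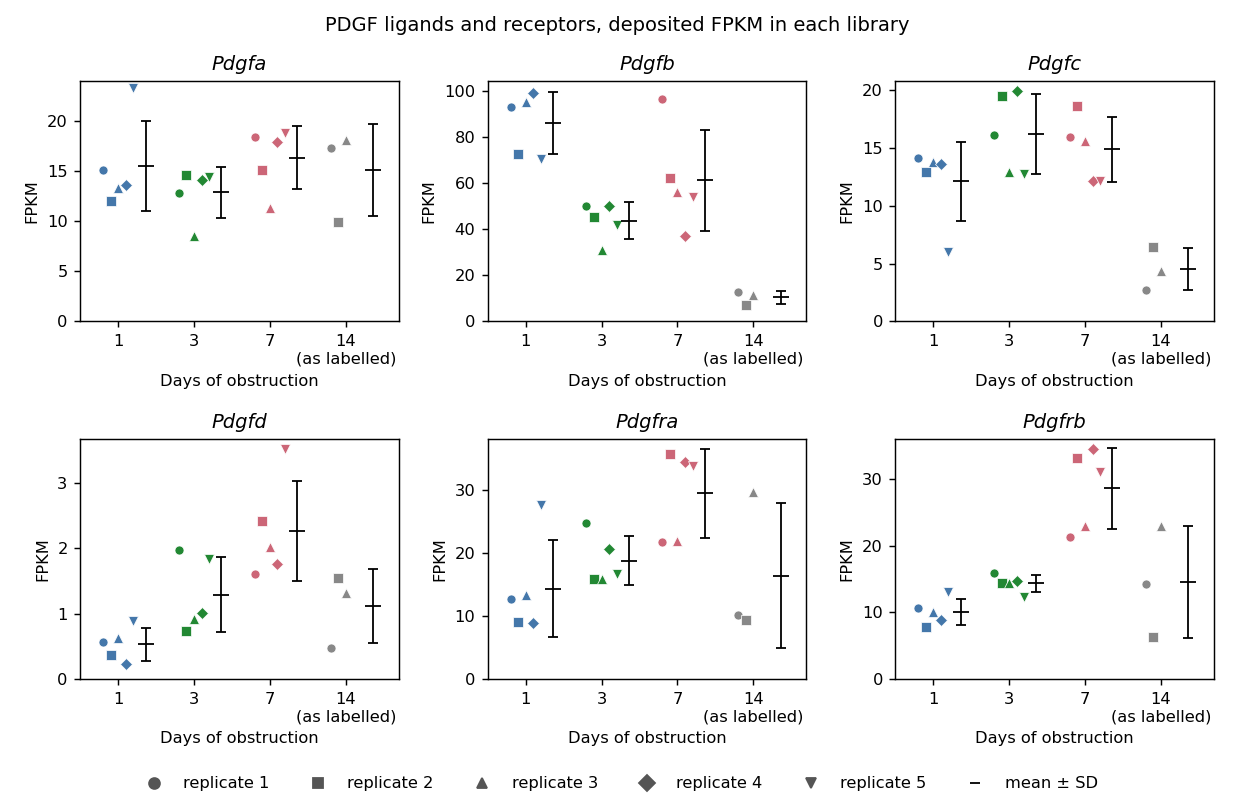
FPKM (vertical axes, linear, each starting at 0) of the 6 PDGF genes in each library, by days of obstruction; marker shapes give the replicate number, and the bar beside each group is the mean ± SD (n = 5, and n = 3 for 14 days as labelled). Pdgfb has its highest mean, 86.2 FPKM, at 1 day, with 43.8 at 3 days and 61.2 at 7 days, Pdgfrb runs up to a 7-day mean of 28.5 FPKM, and replicate 5 of day 1 (downward triangle) is the highest 1-day point for Pdgfa and Pdgfra and the lowest for Pdgfc.

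Between 3 and 1 days, 1 of the 6 PDGF genes was called, Pdgfb, which was lower; 2.27% of all tested genes were called in either direction with 1.16% higher and 1.12% lower. Without the libraries labelled 14 days, Pdgfd and Pdgfrb were called higher there as well. That refit also called many more of all tested genes than the fit on all libraries, so the 2.27% is not its background. Its number of called genes is given below, under how the results depend on the processing, without a split by direction. Whether the added calls of Pdgfd and Pdgfrb exceed that refit's own share of called genes was not tested. Between 7 and 3 days, 1 of the 6 was called, Pdgfrb, which was higher; 1.05% of tested genes were called, 0.717% higher and 0.331% lower. Between 7 and 1 days, 4 of the 6 were called, with Pdgfd, Pdgfra and Pdgfrb higher and Pdgfb lower, where 25.6% of tested genes were called, 12.3% higher and 13.3% lower. Between the libraries labelled 14 days and those of 7 days, Pdgfb, Pdgfc and Pdgfrb were called lower, 3 of 6, where 38.3% of tested genes were called, 21.4% higher and 16.9% lower. The median log2 fold change of the 6 genes was 0.39, 0.51, 0.59 and -0.7 in these 4 comparisons, against -0.01, 0, 0.01 and 0.07 over all tested genes. The comparisons share libraries and are not independent of each other.

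**Figure D2:**
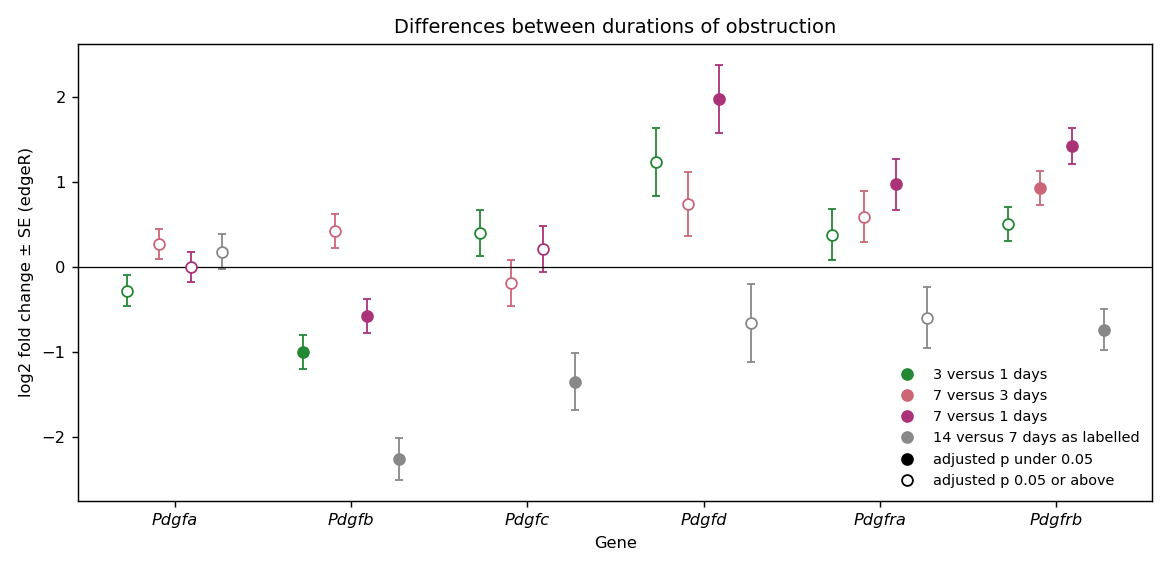
Log2 fold change ± SE from edgeR (vertical axis) of each PDGF gene (horizontal axis) in the 4 comparisons; filled points have an adjusted p under 0.05 and open points do not. Pdgfd and both receptors lie above 0 in the 3 comparisons among 1, 3 and 7 days and below 0 in the comparison of libraries labelled 14 days with those of 7 days, whereas Pdgfb lies at -1 for 3 versus 1 days.

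The promoters of Pdgfb, which was lower at 7 days than at 1 day, and of Pdgfd and Pdgfra, which were higher, are set out here because these genes moved in opposite directions. Each sequence is 300 bases from RefSeq on the GRCr8 build, from 250 bases before the annotated start to 50 after it, read 5′ to 3′ along the gene's strand; of the 6 family members 5 were found in that table. The Pdgfb promoter lies at chr7:113438294-113438593 on the minus strand, that of Pdgfd at chr8:11773258-11773557 on the plus strand and that of Pdgfra at chr14:33408467-33408766 on the minus strand. Capitals mark matches, on either strand, to the GC box GGGCGG or the CCAAT box CCAAT.
Pdgfb: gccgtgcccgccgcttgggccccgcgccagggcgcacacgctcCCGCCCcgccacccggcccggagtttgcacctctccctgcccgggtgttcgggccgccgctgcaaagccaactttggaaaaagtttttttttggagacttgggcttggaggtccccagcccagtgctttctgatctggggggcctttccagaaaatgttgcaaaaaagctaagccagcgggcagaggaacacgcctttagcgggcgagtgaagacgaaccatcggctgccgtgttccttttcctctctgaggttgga
Pdgfd: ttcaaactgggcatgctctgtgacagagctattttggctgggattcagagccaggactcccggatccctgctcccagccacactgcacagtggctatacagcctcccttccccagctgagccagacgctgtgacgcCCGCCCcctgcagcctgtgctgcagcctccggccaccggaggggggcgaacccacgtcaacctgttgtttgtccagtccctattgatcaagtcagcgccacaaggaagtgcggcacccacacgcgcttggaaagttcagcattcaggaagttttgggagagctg
Pdgfra: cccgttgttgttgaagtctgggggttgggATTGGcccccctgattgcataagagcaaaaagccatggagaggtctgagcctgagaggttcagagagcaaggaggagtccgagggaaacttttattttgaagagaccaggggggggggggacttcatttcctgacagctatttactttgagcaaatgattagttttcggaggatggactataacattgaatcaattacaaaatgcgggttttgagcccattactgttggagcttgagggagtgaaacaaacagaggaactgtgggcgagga
GC content was 62% in the Pdgfb promoter with 22 CpG dinucleotides, 60% in that of Pdgfd with 12, and 48% in that of Pdgfra with 5. Pdgfb and Pdgfd each held 1 GC box, as did Pdgfa, and 33.1% of the 33465 RefSeq promoters of this length hold one. Pdgfra held 1 CCAAT box, present in 37.5% of those promoters. None of the 5 held a TATA box TATAAA (14.2% of promoters), an AP-1 site TGACTCA (4.63%) or a CArG box (1.64%). These motifs do not overlap in the sequences printed. In the deposited annotation, whose build is not given, Pdgfb (ENSRNOG00000017197) spans chr7:121214628-121232741 on the minus strand, Pdgfd (ENSRNOG00000029148) chr8:4440876-4669014 on the plus strand and Pdgfra (ENSRNOG00000002244) chr14:35527927-35581031 on the minus strand. There, Pdgfa (ENSRNOG00000001312) spans chr12:17734133-17755285, Pdgfc (ENSRNOG00000010695) chr2:179952227-180128283 and Pdgfrb (ENSRNOG00000018461) chr18:56364620-56406381, all 3 on the plus strand.

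Pdgfb, the ligand of both receptors, fell between 1 and 3 days. Its 1-day libraries held 93, 72.7, 95.4, 99.3 and 70.3 FPKM and its 3-day libraries 50.3, 45.3, 31, 50.3 and 41.8 FPKM. Every 3-day library lay below every 1-day library, a separation in that direction seen in 3.06% of tested genes, with 4.98% separated the other way and 8.04% in either direction. The log2 fold change was -1 ± 0.2, a ratio of 0.5 (edgeR, adjusted p = 0.016), and it was -1.08 without replicate 5 of day 1 (adjusted p = 0.0136) and -1.01 without the libraries labelled 14 days (adjusted p = 0.00783). Without replicate 3 of day 3, the lowest of its group, the change was -0.92 and was no longer called (edgeR, adjusted p = 0.0547).

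At 7 days Pdgfb was spread more widely than at any other duration. The libraries held 96.6, 62.4, 56, 37 and 54.1 FPKM. Replicate 1 reached the 1-day range and replicate 4 lay within the 3-day range, so that the 7-day group overlapped both earlier groups. The 7-day level of Pdgfb differed from that of 1 day by -0.58 ± 0.2 on the log2 scale (edgeR, adjusted p = 0.04), and the difference from 3 days, 0.42 ± 0.2, was not called (adjusted p = 0.256). The 7-day to 1-day call was lost in 9 of 18 refits that each left out 1 library (log2 fold change -0.79 to -0.44, adjusted p up to 0.0915) and in 4 of 9 other fits: with no filter on low counts, with only the 2 groups, and by limma with either pseudocount (-0.59 to -0.54, adjusted p up to 0.0921).

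Pdgfa, the ligand of PDGFR-alpha alone, was called in no comparison. Its levels ran from 12 to 23.2 FPKM at 1 day, 8.51 to 14.6 at 3 days, 11.3 to 18.8 at 7 days and 9.86 to 18.1 in the libraries labelled 14 days. All 4 groups overlapped, and the 1-day maximum belonged to replicate 5, the other libraries of that day ending at 15.1 FPKM. The log2 fold change of 7 against 1 day was 0 ± 0.18 (edgeR, adjusted p = 0.996), and 0.17 without that replicate (adjusted p = 0.455).

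Pdgfc, the latent ligand of PDGFR-alpha that tissue plasminogen activator opens, was not called among 1, 3 and 7 days. It ran from 6.04 to 14.1 FPKM at 1 day, 12.7 to 19.9 at 3 days and 12.1 to 18.6 at 7 days. The groups overlapped, and the lowest value was again that of replicate 5 of day 1, the other 1-day libraries holding 12.9 to 14.1 FPKM. Log2 fold changes were 0.4 ± 0.27 for 3 against 1 day, -0.19 ± 0.27 for 7 against 3 days and 0.21 ± 0.27 for 7 against 1 day (edgeR, adjusted p = 0.461, 0.783 and 0.606). Without replicate 5 of day 1 the first of these was 0.22 and the last 0.03 (edgeR, adjusted p = 0.67 and 0.943). In the libraries labelled 14 days Pdgfc stood at 2.75, 6.41 and 4.37 FPKM. These 3 values lay below all 7-day values; of tested genes, 26.6% were separated in that direction, 2.93% in the other and 29.5% in either. On the log2 scale the change in Pdgfc was -1.35 ± 0.33 (edgeR, adjusted p = 0.00518).

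Pdgfd, the latent ligand of PDGFR-beta, was the scarcest family member and rose between 1 and 7 days. Its 1-day libraries held 0.566, 0.367, 0.629, 0.223 and 0.883 FPKM, its 3-day libraries 1.97, 0.733, 0.914, 1.01 and 1.83, and its 7-day libraries 1.6, 2.41, 2.02, 1.76 and 3.51 FPKM. All 7-day libraries exceeded all 1-day libraries, as did those of 14.3% of tested genes (6.9% were separated the other way, 21.2% in either), while the 3-day libraries overlapped both groups. The log2 fold change of 7 against 1 day was 1.98 ± 0.4, a ratio of 3.93 (edgeR, adjusted p = 0.0023), and 2.2 without replicate 5 of day 1 (adjusted p = 0.00248). Counts of 8 to 155 reads per library lay behind these values. The earlier step, 1.23 ± 0.4 for 3 against 1 day, was not called with all libraries (edgeR, adjusted p = 0.117) and was called without the libraries labelled 14 days, at 1.22 (adjusted p = 0.0391). The later step, 0.74 ± 0.38 for 7 against 3 days, was not called (edgeR, adjusted p = 0.311).

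Pdgfrb, the receptor of pericytes and mesangial cells, rose to 2.68 times its 1-day level by 7 days, and the step from 3 to 7 days was itself called. The 1-day libraries held 10.7, 7.75, 10, 8.92 and 13 FPKM and the 3-day libraries 15.9, 14.4, 14.4, 14.7 and 12.3 FPKM. The 2 groups overlapped only through replicate 5 of day 1 and replicate 5 of day 3. The 7-day libraries held 21.3, 33.1, 22.9, 34.5 and 31 FPKM, all above every earlier library; 6.99% of tested genes were so separated from 3 days, 1.32% the other way and 8.3% in either. The log2 fold change was 1.42 ± 0.21 for 7 against 1 day (edgeR, adjusted p = 0.000298; without replicate 5 of day 1, 1.51 and adjusted p = 0.000468).

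For 7 against 3 days the log2 fold change of Pdgfrb was 0.93 ± 0.2 (edgeR, adjusted p = 0.0461). This call was lost in 13 of 18 refits that each left out 1 library, with the change between 0.86 and 1.02 and adjusted p up to 0.127, and also with no filter on low counts and by limma with either pseudocount (0.9 to 0.97, adjusted p up to 0.108). It was kept without the libraries labelled 14 days, at 0.92 (adjusted p = 0.00335). The first step, 0.5 ± 0.2 for 3 against 1 day, was not called with all libraries (edgeR, adjusted p = 0.209) and was called without those labelled 14 days, at 0.49 (adjusted p = 0.043).

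Pdgfra, the receptor that marks resident fibroblasts, rose between 1 and 7 days. Its 1-day libraries held 12.7, 9.07, 13.3, 8.98 and 27.7 FPKM, the 3-day libraries 24.8, 15.9, 15.9, 20.7 and 16.7, and the 7-day libraries 21.8, 35.7, 21.9, 34.5 and 33.9 FPKM. Replicate 5 of day 1 lay inside the 7-day range, and the other 4 libraries of that day lay below every 3-day and 7-day library. The log2 fold change of 7 against 1 day was 0.97 ± 0.3 (edgeR, adjusted p = 0.0269) and 1.32 without replicate 5 of day 1 (adjusted p = 0.00277). With replicate 5 kept and another library left out, the call was lost in 7 of the refits (adjusted p up to 0.0699).

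For 3 against 1 day the log2 fold change of Pdgfra was 0.38 ± 0.3 (edgeR, adjusted p = 0.539). It was 0.73 without replicate 5 of day 1 (adjusted p = 0.145), and again 0.73, now called, after dropping those labelled 14 days as well (adjusted p = 0.0212). The 3-day to 7-day difference of Pdgfra, 0.59 ± 0.3, was not called (edgeR, adjusted p = 0.306), and with both sets of libraries left out it was 0.58 and called (adjusted p = 0.0402).

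The 2 receptor genes moved together from library to library, and Pdgfd moved with them. Over the 15 libraries of 1, 3 and 7 days, log2 CPM (counts scaled to library size) of Pdgfra and Pdgfrb had a Pearson r of 0.88 and a Spearman rho of 0.86. For Pdgfd the r was 0.87 with Pdgfra and 0.84 with Pdgfrb. The ligand Pdgfb had an r of -0.52 with Pdgfra, -0.49 with Pdgfrb and -0.55 with Pdgfd. These coefficients describe libraries that share 3 durations and a tissue, so they contain the differences between groups given above, and no p is attached to them.

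**Figure D3:**
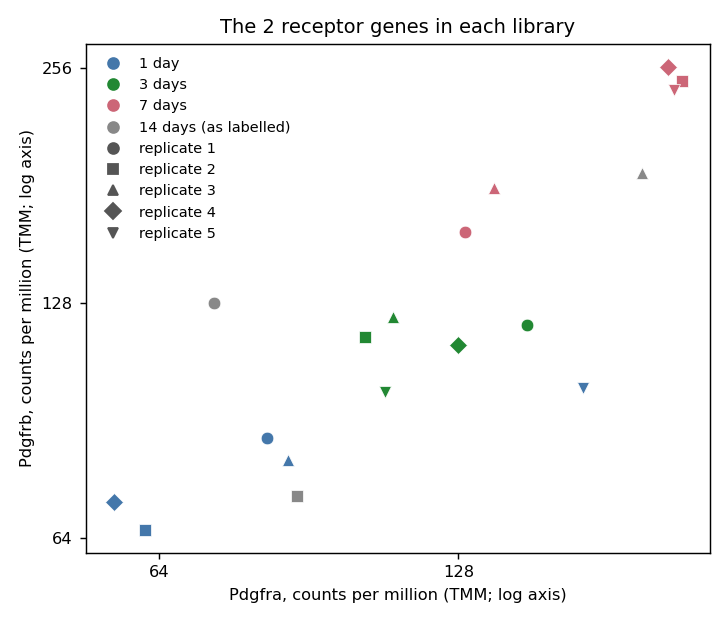
Pdgfrb against Pdgfra in each library, as CPM scaled by the TMM method, on log axes; colours give the days of obstruction and shapes the replicate. The 7-day points lie highest on the Pdgfrb axis of the 3 earlier durations, and the 1-day replicate 5 (downward triangle) lies to the right of the other 1-day points.

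Within the family, the balance between partners was compared in each library, as the ratio of their FPKM. For Pdgfrb to Pdgfra the geometric mean was 0.76 at 1 day, 0.772 at 3 days and 0.971 at 7 days. The 7-day ratios, 0.915 to 1.04, lay above all 3-day ratios, 0.64 to 0.908. The log2 difference was 0.33, with an exact two-sided permutation p of 0.00794, the smallest this design allows, and 0.0714 after Benjamini-Hochberg adjustment over the 9 ratio tests. The 7-day to 1-day difference was 0.35 (exact permutation p = 0.0397, adjusted p = 0.0893), and without replicate 5 of day 1, whose ratio of 0.469 was the lowest of its group, it was 0.18 (exact permutation p = 0.0714, adjusted p = 0.0918). Neither ratio difference passed the threshold with all libraries; the second passed without replicate 4 of day 1, at 0.45 (exact permutation, adjusted p = 0.0357).

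The ratio of Pdgfb to Pdgfa had a geometric mean of 5.68 at 1 day, 3.41 at 3 days and 3.64 at 7 days. The log2 difference of 3 from 1 day was -0.74 (exact permutation p = 0.0397, adjusted p = 0.0893), and without replicate 5 of day 1 it was -0.97 and passed (exact permutation p = 0.00794, adjusted p = 0.0238). The ratio of the 2 latent ligands, Pdgfd to Pdgfc, had geometric means of 0.0416, 0.0752 and 0.148 at 1, 3 and 7 days. Its 7-day to 1-day log2 difference was 1.83 (exact permutation p = 0.0397, adjusted p = 0.0893), and 2.28 without replicate 5 of day 1 (exact permutation p = 0.00794, adjusted p = 0.0238). With all libraries, none of the 9 ratio tests passed after adjustment.

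**Figure D4:**
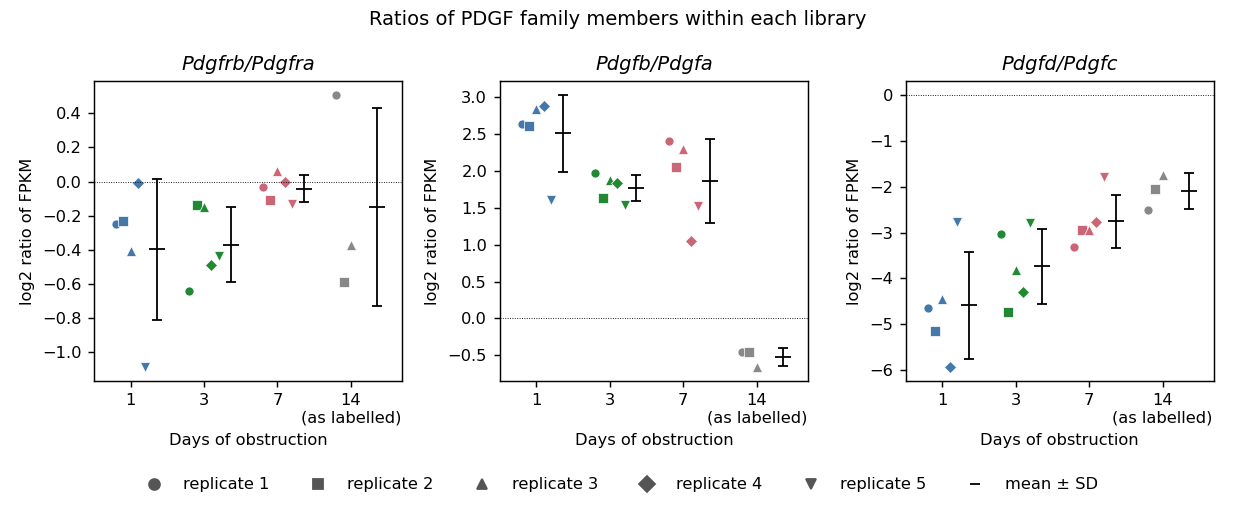
Log2 of the FPKM ratio of Pdgfrb to Pdgfra, Pdgfb to Pdgfa and Pdgfd to Pdgfc (vertical axes) in each library, by days of obstruction; shapes give the replicate, bars are mean ± SD and the dotted line is equality. Pdgfrb approaches Pdgfra at 7 days with a geometric mean ratio of 0.971, and Pdgfb falls below Pdgfa only in the 3 libraries labelled 14 days.

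Pdgfb supplied most ligand transcripts at 1, 3 and 7 days. Its share of the summed FPKM of the 4 ligands was 75.2 ± 3.3% at 1 day, 58.9 ± 1.97% at 3 days and 63.4 ± 6.96% at 7 days (SD, n = 5 each). The lowest 1-day share, 70% in replicate 5, was above the highest 3-day share, 62%, and the other 1-day shares were 74.2% to 78.3%. Pdgfc, whose own level was not called between these days, made up 10.5 ± 2.69% of the sum at 1 day and 21.9 ± 2.84% at 3 days (SD, n = 5 each), with 6.01% in replicate 5 of day 1 and 10.8% to 13.2% in the other libraries of that day. Pdgfd made up 0.48 ± 0.257% at 1 day and 2.51 ± 0.979% at 7 days (SD, n = 5 each). Summed over the ligands, 1-day libraries held 114 ± 13.8 FPKM, 3-day libraries 74.1 ± 12.8 and 7-day libraries 94.6 ± 23.7 (SD, n = 5 each). These shares were not tested, and because they add up to the whole, a lower Pdgfb share raises the others.

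**Figure D5:**
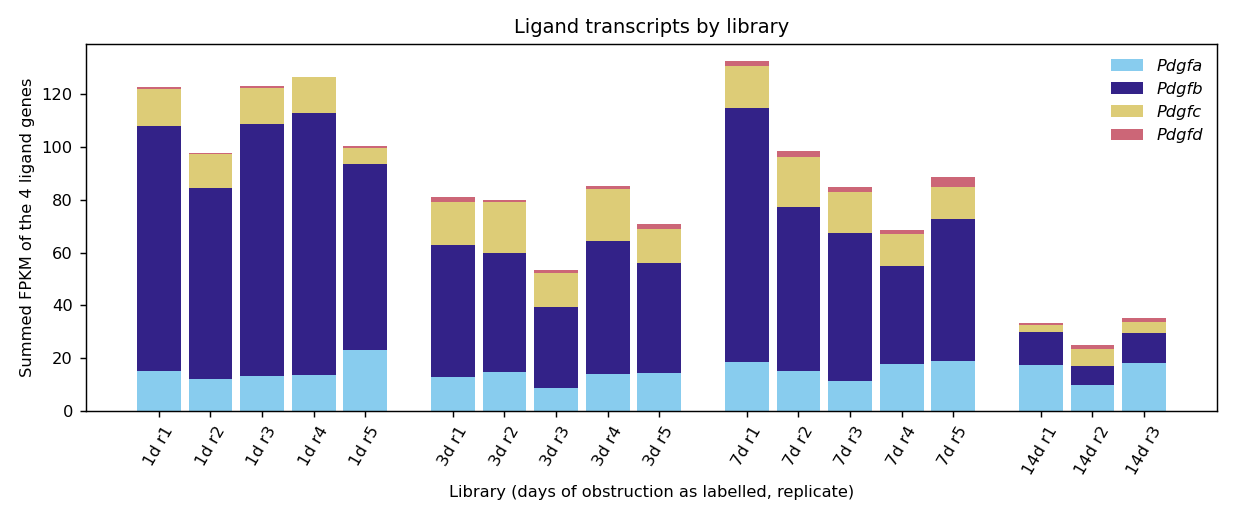
Summed FPKM of the 4 ligand genes in each library (bars from 0, stacked by gene). Pdgfb is the largest block in all 15 libraries of 1, 3 and 7 days, and Pdgfa is the largest block in each of the 3 libraries labelled 14 days, where the sum was 31.2 ± 5.45 FPKM.

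In the libraries labelled 14 days, which went against the injury marker Havcr1, Pdgfb stood at 12.7, 7.16 and 11.4 FPKM. All 3 lay below every other library of the series. From the 7-day libraries, 26.6% of tested genes were separated in that direction, 2.93% in the other and 29.5% in either. The log2 fold change from 7 days was -2.26 ± 0.25, a ratio of 0.209 (edgeR, adjusted p = 1.64e-05). Pdgfrb stood at 14.3, 6.24 and 23 FPKM, with replicate 3 inside the 7-day range and the other 2 below it. Its log2 fold change was -0.74 ± 0.24 (edgeR, adjusted p = 0.0231); without replicate 1 it was -0.74 (adjusted p = 0.0625), without replicate 2 it was -0.43 (adjusted p = 0.0867) and without replicate 4 of day 7 it was -0.67 (adjusted p = 0.0501).

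Pdgfra stood at 10.1, 9.42 and 29.7 FPKM in the libraries labelled 14 days, so that replicate 3 matched the 7-day libraries and the other 2 did not. Its log2 fold change of -0.6 ± 0.36 was not called (edgeR, adjusted p = 0.195), and without replicate 3 it was -1.18 and called (adjusted p = 0.0202). Replicate 3 also had the highest summed FPKM of fibroblast markers, 968, against 340 and 104 in replicates 1 and 2. That order was not particular to fibroblast markers. Endothelial markers summed to 634, 142 and 1760 in replicates 1, 2 and 3 and adipocyte markers to 278, 62.4 and 2370. Pericyte, mesangial and smooth muscle markers, at 964, 190 and 828, had another order. Pdgfd, at 0.481, 1.55 and 1.31 FPKM, lay below all 7-day FPKM values without being called (log2 fold change -0.66 ± 0.46, edgeR, adjusted p = 0.273). By FPKM, 26.6% of tested genes were separated in that direction, 2.93% in the other and 29.5% in either. As CPM scaled by the TMM method, Pdgfd in replicate 2 was at 14.6, inside the 7-day range of 9.61 to 21.9. Pdgfa was at 0.18 ± 0.21 (edgeR, adjusted p = 0.528), and its sign turned with limma on log2(FPKM+1), at -0.13. The 2 fits differed in this comparison. With limma the median change of all genes was -0.27, against 0.07 with edgeR. The calls split into 906 higher and 4855 lower with limma, against 3102 higher and 2458 lower with edgeR. The limma fit changed the input, the scaling, the test and the filter together, and the part of each was not tested. Pdgfb, at 0.695 of the Pdgfa level by geometric mean, was the less abundant of that pair in all 3 libraries.

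Among the 11 genes that process or trap the ligands, 10 were tested and 1 was called between 7 and 1 days. In that comparison 12.3% of all tested genes were called higher and 13.3% lower. Sparc, a matrix protein that binds PDGF-B and keeps it from its receptors, rose from 159 ± 26.4 to 600 ± 77.8 FPKM (SD, n = 5 each; log2 fold change 1.84 ± 0.27, edgeR, adjusted p = 0.000357). It was also the 1 gene of this list called between 7 and 3 days, at 1.6 ± 0.27 (edgeR, adjusted p = 0.0155). Over all tested genes 0.717% were called higher and 0.331% lower between those days. Furin, a convertase that matures PDGF-A and PDGF-B, was at 96.1 ± 17.3 FPKM at 1 day and 65.8 ± 3.99 at 7 days (SD, n = 5 each) and was not called (edgeR, adjusted p = 0.0961). The median log2 fold change of the list was -0.37, against 0.01 over all tested genes. Without the libraries labelled 14 days 1 of the list was called higher and 3 lower, and without replicate 5 of day 1 as well, 2 higher and 3 lower with a median of -0.02. The last of these refits called 5841 genes in either direction, against 3713 with all libraries, so the 12.3% and 13.3% are not its background. None of the 10 was called between 3 and 1 days, where 1.16% of all tested genes were called higher and 1.12% lower. Furin, with the smallest p there, changed by -0.49 ± 0.27 (edgeR, unadjusted p = 0.0806, adjusted p = 0.342).

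Of the 7 coreceptors and receptor partners, 1 rose and 2 fell between 1 and 7 days. Over all tested genes, 12.3% were called higher and 13.3% lower. Nrp2, a neuropilin, rose by 1.53 ± 0.39 on the log2 scale (edgeR, adjusted p = 0.00923). Cd44, the hyaluronan receptor, changed by -1.33 ± 0.32 (edgeR, adjusted p = 0.00613), and its fall was called already between 1 and 3 days at -1.29 ± 0.32 (adjusted p = 0.0429), as Pdgfb was. Between those days 1.12% of all tested genes were called lower and 1.16% higher. Itgav, an integrin chain, changed by -1.09 ± 0.21 from 1 to 7 days (edgeR, adjusted p = 0.00165). The median of this list was 0.11. Without the libraries labelled 14 days and replicate 5 of day 1, 3 of the 7 were called higher and 2 lower, with a median of 0.38. In that refit 5841 genes were called in either direction, against 3713 with all libraries, so the 12.3% and 13.3% are not its background.

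Among genes that carry the receptor signal onward, more were called lower than higher at 7 days. Of 30 adaptors and enzymes tested, 10 fell and 1 rose between 1 and 7 days, with a list median of -0.18; over all tested genes, 13.3% were called lower and 12.3% higher. By limma on log2(FPKM+1), 5 of the 30 fell and 1 rose. The falling genes included Gab1, a docking adaptor (-0.88 ± 0.13, edgeR, adjusted p = 0.000385), the Src-family kinase gene Yes1 (-1.08 ± 0.19, adjusted p = 0.000952) and the small GTPase gene Nras (-0.69 ± 0.13, adjusted p = 0.00125). Nras was also the 1 gene of this list called lower between 3 and 1 days, at -0.55 ± 0.13 (edgeR, adjusted p = 0.0349). Of all tested genes 1.12% were called lower there and 1.16% higher. The gene that rose was Fyn, another Src-family kinase gene (0.84 ± 0.24, edgeR, adjusted p = 0.0176). None of the 30 was called between 7 and 3 days, where 1.05% of all tested genes were called in either direction. The smallest adjusted p there was that of Fyn, 0.0704 (edgeR, unadjusted p = 0.00154).

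Genes that dampen receptor signalling were split. Of 12 tested, 3 rose and 3 fell between 1 and 7 days, and the list median was 0.32, where 12.3% of all tested genes rose and 13.3% fell. Spry1 and Spry2, feedback inhibitors of the RAS pathway, rose by 1.37 ± 0.21 and 1.18 ± 0.22 on the log2 scale (edgeR, adjusted p = 0.000436 and 0.00129). Ptprj, a receptor phosphatase, changed by -0.65 ± 0.12 and Cbl, a ubiquitin ligase that sends receptors to the lysosome, by -1.17 ± 0.39 (edgeR, adjusted p = 0.00109 and 0.0364). Of 17 early genes that growth factors switch on, 5 rose and 3 fell in the same comparison, with a median of 0.25. Egr2, a zinc-finger factor, rose from 2.07 ± 0.636 to 11.6 ± 3.43 FPKM (SD, n = 5 each; log2 fold change 2.39 ± 0.32, edgeR, adjusted p = 0.000196), while Klf4, a zinc-finger factor of epithelium and vessel wall, changed by -1.09 ± 0.23 (adjusted p = 0.00296).

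In the libraries labelled 14 days, compared with those of 7 days, each of these lists held calls in both directions by edgeR. Of the processing genes 4 were called higher and 2 lower, with Furin at 1.66 ± 0.3 and Sparc at -1.24 ± 0.32 (edgeR, adjusted p = 0.000624 and 0.00687). Of the early genes 1 was higher and 7 lower, among them Myc at -2.77 ± 0.24 and Egr2 at -3.39 ± 0.43 (edgeR, adjusted p = 2.69e-06 and 4.56e-05). Of the dampening genes 2 were higher and 7 lower, and of the adaptors and enzymes 9 were higher and 3 lower. Over all tested genes 21.4% were called higher and 16.9% lower. These splits differed in another fit. By limma on log2(FPKM+1), 2 processing genes were higher and 4 lower, and 0 early genes higher and 10 lower. In that fit 0 dampening genes were higher and 7 lower, and 2 adaptors and enzymes higher and 8 lower. What caused the difference between the fits was not tested.

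Most fibroblast markers and a minority of pericyte, mesangial and smooth muscle markers were called higher at 7 days than at 1 day. Of 11 tested fibroblast markers 8 rose between 1 and 7 days and none fell, among them Tcf21, a factor of renal stroma (1.51 ± 0.24, edgeR, adjusted p = 0.000607), and the collagen gene Col1a1 (2.17 ± 0.39, adjusted p = 0.00114). Their summed FPKM was 207 to 326 at 1 day, 261 to 331 at 3 days and 523 to 766 at 7 days; all 14 listed were in the table, and Col1a2 was at 0 in every library. Of 16 pericyte, mesangial and smooth muscle markers 5 rose and none fell, with a list median of 0.22. Those that rose were Tagln, an actin-binding protein of contractile cells (2.08 ± 0.35, edgeR, adjusted p = 0.000757), the adhesion gene Mcam, the smooth muscle actin gene Acta2, the channel gene Kcnj8 and the matrix gene Postn. Summed FPKM of the 16 markers had ranges of 152 to 245 at 1 day, 164 to 341 at 3 days and 383 to 565 at 7 days. Tagln and Acta2, with 7-day means of 177 and 115 FPKM against 39.5 and 36.9 at 1 day, made up much of the 7-day sums. Of the 16 changes 13 were above 0. Rgs5, Cspg4 and Myh11 were not called, averaging 14.8, 3.56 and 8.96 FPKM at 1 day and 15, 2.45 and 7.78 at 7 days. With all libraries, 12.3% of all tested genes were called higher. Without the libraries labelled 14 days and replicate 5 of day 1, 8 of the 16 were called higher. That refit called 5841 genes in either direction, against 3713 with all libraries, so the 12.3% is not its background. The part of these cells in the receptor levels was not tested.

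Cells known to release PDGF-B were followed by their markers too. Of 12 endothelial markers 1 was called higher at 7 than at 1 day and none lower. Over all tested genes 12.3% were called higher and 13.3% lower in that comparison. Without the libraries labelled 14 days and replicate 5 of day 1, 5 endothelial markers were higher. That refit called 5841 genes in either direction against 3713, so the 12.3% and 13.3% are not its background. Endothelial sums were 138 to 472, 138 to 203 and 197 to 324 FPKM at 1, 3 and 7 days. Between 3 and 1 days none was called, where 1.12% of all tested genes were called lower. The list median there was -0.34, with 2 of 12 changes above 0. Of 12 macrophage markers 10 were called higher at 7 than at 1 day. Their sums were 322 to 703, 711 to 1320 and 858 to 3990 FPKM at 1, 3 and 7 days. Of 7 platelet markers 2 were tested, and both were called higher at 7 than at 1 day. Pf4 changed by 2.59 ± 0.35 on the log2 scale (edgeR, adjusted p = 0.000211). Platelet sums were 4.67 to 9.9, 9.36 to 16.9 and 22.3 to 49.1 FPKM. Pf4, with a 7-day mean of 31.2 FPKM, made up most of the 7-day sums. Gp9, Gp1bb and Treml1 averaged 0.512, 0.616 and 0.716 FPKM at 7 days and were not tested. Ppbp was at 0 at 1 and 3 days and averaged 0.0491 FPKM at 7 days, and Gp5 was at 0 in these libraries. The part of these cells in the level of Pdgfb was not tested.

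The genes most like each family member were taken by Pearson r of log2 CPM over the 15 libraries of 1, 3 and 7 days, among 13313 genes. For Pdgfrb they were Ctsk, which encodes cathepsin K (r = 0.986, rho = 0.961), Cpxm1 (r = 0.983) and Sfrp1, a secreted WNT modulator (r = 0.978). The r of Ctsk with Pdgfrb was 0.991 without the 2 libraries farthest from the Pdgfrb median and 0.959 over all 18 libraries. For Pdgfra they were Spon1, a secreted matrix protein (r = 0.981, rho = 0.979), Zcchc24 (r = 0.962) and Tbc1d2b (r = 0.962). For Pdgfd they were Colec12, a scavenger receptor (r = 0.961, rho = 0.961), Rap1gap (r = 0.947) and Adap1 (r = 0.94), and over all 18 libraries the r of Colec12 was 0.583.

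For Pdgfb the nearest genes were Dennd5a (r = 0.913, rho = 0.932), Syncrip, an RNA-binding protein (r = 0.892), and Mapk6 (r = 0.889). For Pdgfc they were Glb1l (r = 0.939), RGD1564149 (r = 0.879) and Fbxo9 (r = 0.877), and the r of Glb1l was 0.72 without the 2 farthest libraries, among them replicate 5 of day 1, and 0.98 over all 18 libraries. For Pdgfa they were AC139445.1 (r = 0.891), Apol9a (r = 0.86) and Trim21 (r = 0.846), and without replicate 5 of day 1 and replicate 3 of day 3 these were 0.669, 0.727 and 0.633. The values are a description of these libraries, which share their durations, and carry no p.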

How the data were processed

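Poly(A) RNA of rat renal parenchyma was sequenced from 18 libraries. The submitters' processing notes name fastp 0.19.7 and HISAT2 2.0.4; the counter, its strand setting and the build are named nowhere in the sources used here, so antisense or overlapping transcripts cannot be separated. Per the file headers, the authors deposited a table of read counts for each gene. The authors deposited FPKM beside them, with no account of how FPKM was made.

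Groups came from the labels. All libraries carry the same batch label, and 0 of 153 library pairs held identical counts. Counts were filtered (filterByExpr, min.count 10, min.total.count 15), scaled by TMM and fitted with edgeR 4.0.16 (glmQLFit, R 4.3.3) over all 18 libraries, with Benjamini-Hochberg adjustment over 14511 genes. Ratios of FPKM were compared by exact permutation (Python 3.11.15, numpy 2.4.6). Alternatives were RLE factors, DESeq2 1.42.0, no filter, limma 3.58.1 on log2(FPKM+1) and log2(FPKM+0.1), fits on fewer libraries, a replicate block and each library left out. The fit was tested on simulated counts in which no library stood apart from its group, unlike in the data. Of 207 listed genes 204 were found. Text names members, up to 6 called genes per list and comparison by p (or, without calls, the 2 of lowest p), and the 3 genes most like each member with a mean FPKM of at least 1 (log2 CPM, prior count 2). Members and lists were chosen with earlier results of these data known.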

Additional observations from a re-analysis of the deposited data

Results flagged for a closer look

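In 4 of the 27 groups of 5 libraries examined (the 6 genes and 3 ratios at 1, 3 and 7 days), 1 library lay farther from its neighbours than Dixon's 95% critical value of 0.71 allows, and chance passes that value in about 5% of groups. All 4 were replicate 5 of day 1. Pdgfa was at 23.2 FPKM there, against 12 to 15.1 in the other 1-day libraries. Pdgfc was at 6.04 FPKM, against 12.9 to 14.1. Pdgfra was at 27.7 FPKM, against 8.98 to 13.3. The log2 ratio of Pdgfb to Pdgfa was 1.6, against 2.6 to 2.87. The same library held 178 FPKM of summed adipocyte markers, 87.1 of urothelial markers and 385 of proximal tubule markers, the last of these the lowest sum of its group. The part of these in the PDGF values was not tested.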

How the results depend on the processing

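Pdgfd and Pdgfrb from 1 to 7 days, and Pdgfb and Pdgfc between 7 and 14 days as labelled, kept their calls and directions in all alternatives and all 18 refits without 1 library. The numbers of genes called were less stable. Between 3 and 1 days, 330 genes were called by edgeR over all libraries, 951 by DESeq2, 171 with no filter on low counts, 1463 without the libraries labelled 14 days, 2016 without those and replicate 5 of day 1, 1203 with only the 2 groups, 218 and 180 by limma on log2(FPKM+1) and log2(FPKM+0.1), and 115 to 1159 with 1 library left out. The PDGF genes called there numbered 1, against 2 by DESeq2, 3 without the libraries labelled 14 days, 4 without those and replicate 5 of day 1, 2 with only the 2 groups, and 0 to 1 with 1 library left out. Between 7 and 3 days, 152 genes were called, against 909 by DESeq2, 64 with no filter, 1108 without the libraries labelled 14 days, 1772 without those and replicate 5 of day 1, 981 with only the 2 groups, 121 and 32 by limma with the larger and the smaller pseudocount, and 14 to 870 with 1 library left out. The PDGF genes called there numbered 1, against 0 with no filter and 0 in both limma fits, 2 without the libraries labelled 14 days and replicate 5 of day 1, and 0 to 1 with 1 library left out. Between 7 and 1 days, 3713 genes were called, against 5841 without the libraries labelled 14 days and replicate 5 of day 1 and 2834 to 5146 with 1 library left out; the PDGF genes called ranged from 2 to 4. Between 14 days as labelled and 7 days, 5560 genes were called, against 3153 with only the 2 groups, and the PDGF genes called numbered 3, against 5 by limma on log2(FPKM+1) and 2 to 4 with 1 library left out. The cause of these shifts was not tested.

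Pdgfa changed sign. From 1 to 7 days it was at 0, and at 0.16 without the libraries labelled 14 days and replicate 5 of day 1, 0.09 in both limma fits, 0.01 with the replicate block and -0.07 to 0.17 with 1 library left out. Between 14 days as labelled and 7 days it was -0.13 and -0.14 in the limma fits. None of these Pdgfa values was called. The log2 difference of Pdgfrb to Pdgfra from 1 to 3 days ran from -0.15 to 0.12 with 1 library left out, and that from 1 to 7 days from 0.18 to 0.45, passing without replicate 4 of day 1. That of Pdgfb to Pdgfa ran from -0.97 to -0.65 from 1 to 3 days and from -0.04 to 0.3 from 3 to 7 days, and that of Pdgfd to Pdgfc from 1.5 to 2.28 from 1 to 7 days.

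Replicate numbers did not pair libraries: deviations of same-numbered libraries from their group means correlated at -0.42 to 0.21. With the replicate number as a block, 139 genes were called between 3 and 1 days, 39 between 7 and 3 days, 3363 between 7 and 1 days and 4485 between 14 days as labelled and 7 days. In that block fit the PDGF genes called numbered 1, 0, 4 and 2, without Pdgfrb between 7 and 3 days (0.93, adjusted p = 0.0876) and between 14 days as labelled and 7 days (-0.74, adjusted p = 0.0541). Depth limits Pdgfd most, at 8 to 155 reads per library.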
